A study of Mus musculus with 15 samples.

Results

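The interaction of treatment and wounding asks, for each gene, whether the change from unwounded to wounded skin was the same after tamoxifen as after vehicle. It was computed here as the wound response in tamoxifen skin minus the wound response in vehicle skin, with the 4 groups named as the authors' gene tables name them. Of 24543 genes in the table, 13922 had at least 1 RPKM (a read count scaled to the transcript's length and the library's size) in at least 3 of the 15 libraries and were tested, and 3059 were at 0 in every library. All 15 of 15 libraries entered.

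Every library came from skin of mice labelled K14CreERTM/LSL-SOX2, on the strain background 129/SvEv/C57/B16 X CD-1. The K14 promoter is active in basal keratinocytes, so the Cre recombinase that tamoxifen switches on, and with it the SOX2 transgene behind a stop cassette, is placed in the epidermis and follicle epithelium. Tamoxifen in ethanol (5 mg/ml, 200 µl) or ethanol alone was put on the skin. The groups are unwounded vehicle skin (n = 4, day 0), unwounded tamoxifen skin (n = 3, day 0), vehicle wounded skin (n = 4, day 4) and tamoxifen wounded skin (n = 4, day 4). No group without the transgene received tamoxifen, so the drug and the transgene cannot be told apart, and neither can wounding and the day of sampling. The labels do not say that the libraries of a group came from different mice, so p-values measure the spread between libraries.

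The sample titles exchange the treatment of the wounded sets. The 4 libraries called vehicle wounded here carry tamoxifen in their titles (wounded set A), and the 4 called tamoxifen wounded here carry vehicle (wounded set B). The names of the gene tables are used throughout, and the values under the titles' names are given at the end. The wound responses share no library: tamoxifen wounded was set against tamoxifen unwounded, and vehicle wounded against vehicle unwounded.

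A skin wound is closed by keratinocytes that leave their resting program, switch on stress keratins, laminins and proteases and crawl over the gap, while neutrophils and then macrophages enter and fibroblasts lay down matrix. The hair follicle is a second large program of skin: in its growth phase it holds dividing matrix cells, hair keratins and pigment-making melanocytes, and in its resting phase most of these transcripts are low. In whole skin, fewer cells of a type and less RNA per cell cannot be told apart.

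Libraries held 39277860 to 75102345 alignments, at which 3 reads on a transcript of 1 kb equal 0.0399 to 0.0764 RPKM. Skin markers were high in every library: Krt5 was at 1341 to 2659 RPKM, Krt10 at 680.9 to 2839 and Col1a1 at 451.5 to 3237. Sox2, the transgene's own gene, was at 2.57, 2.56, 2.04 and 1.85 RPKM in unwounded vehicle skin, 2.89, 2.35 and 1.98 in unwounded tamoxifen skin, 2.02, 2.18, 1.87 and 3.82 in vehicle wounded skin and 2.07, 2.64, 2.55 and 2.27 in tamoxifen wounded skin. These ranges overlapped, and reads on a gfp sequence numbered 1 to 9 per library. The deposited Sox2 values therefore do not separate the groups. The interaction of Sox2 was -0.08 ± 0.25 (SE, adjusted p = 0.821). The share of summed RPKM taken by 43 hair genes was 6.57 to 11.1% in unwounded tamoxifen skin, 1.33 to 2.74% in tamoxifen wounded skin and 0.0181 to 0.0283% in unwounded vehicle skin. In vehicle wounded skin it was 0.609% in replicate 2 and 0.0136 to 0.0253% in the other 3 libraries, so that replicate 2 stands apart. Counts of the hair and pigment lists are given with and without that library. Interactions of single hair and pigment genes are given with it only.

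The interaction passed the threshold (limma, Benjamini-Hochberg adjusted p under 0.05) in 5565 genes, 40% of those tested. In 2749 of them (19.7%) the wound response was higher in tamoxifen skin and in 2816 (20.2%) it was lower. A difference of at least 2-fold on the log2(RPKM + 0.5) scale was reached by 965 higher and 510 lower genes. The middle 50% of all tested genes lay between -0.28 and 0.35 on the log2 scale, with a median of 0.0012, and the 5th and 95th percentiles were -0.91 and 1.22. Without replicate 2 of vehicle wounded skin 5111 genes passed, 2562 higher and 2549 lower.

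Wounding called 7633 genes in tamoxifen skin (54.8%), 3610 up (25.9%) and 4023 down (28.9%). In vehicle skin it called 5541 (39.8%), 2847 up (20.4%) and 2694 down (19.4%). Of 3336 genes called in both, 2658 (79.7%) moved the same way and 678 moved in opposite directions. Among those that moved the same way, 769 also passed the interaction, and 631 of the 769 had the larger change in tamoxifen skin. Across all tested genes the responses had a Pearson correlation of 0.525, as a description over genes, which are not independent.

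**Figure D1:**
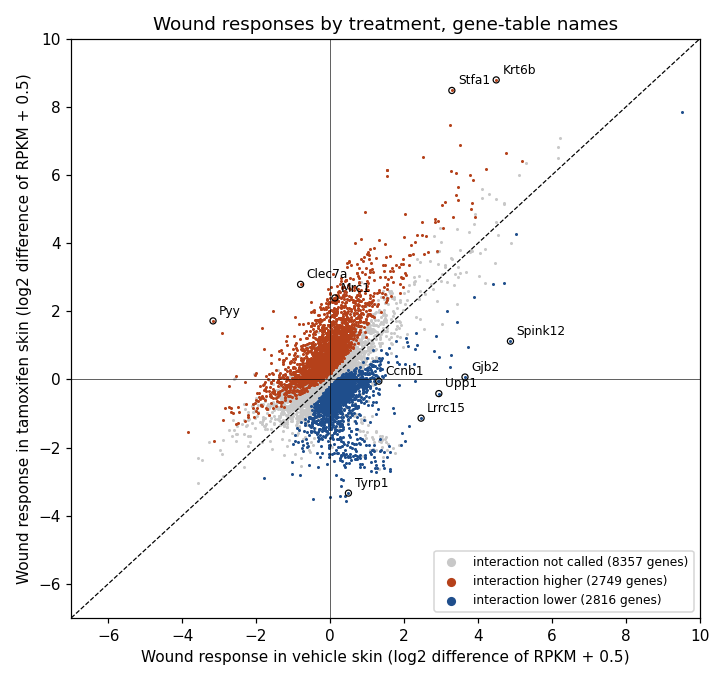
Each point is 1 of 13922 genes, with its wound response in vehicle skin on the x axis and in tamoxifen skin on the y axis (log2 difference of RPKM + 0.5). The 2749 genes of higher interaction (red) lie above the dashed line of equal response, the 2816 of lower interaction (blue) below it, and Pyy, Clec7a and Upp1 lie in the quadrants where the responses have opposite signs.

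The calls behind the interaction fell into a few patterns. Among genes of lower interaction, 1446 fell in tamoxifen skin with no call in vehicle skin, 619 rose in vehicle skin with no call in tamoxifen skin, and 448 fell in tamoxifen skin and rose in vehicle skin. Among genes of higher interaction, 1320 rose in tamoxifen skin with no call in vehicle skin, 534 fell in vehicle skin with no call in tamoxifen skin, 509 rose in both and 230 rose in tamoxifen skin and fell in vehicle skin. The same interaction can be read as the treatment difference in wounded skin minus that in unwounded skin. Read this way, the treatment difference was smaller in size in wounded than in unwounded skin for 5248 of the 5565 genes (94.3%) and for 11202 of all 13922 tested genes (80.5%).

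**Figure D2:**
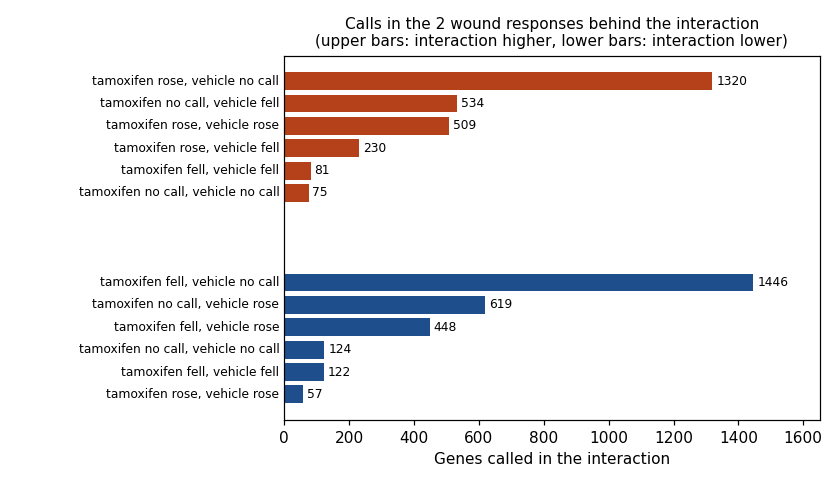
Bars count the genes called in the interaction by their call in each wound response, with higher interaction above and lower interaction below. The longest bars are genes that fell (1446) or rose (1320) in tamoxifen skin with no call in vehicle skin.

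Melanocyte genes, which make and pack the pigment of the growing hair, fell after wounding in tamoxifen skin and had no call in vehicle skin. All 10 tested members had a lower interaction, with a median of -3.10 (log2) beside 0.0012 for all tested genes. In tamoxifen skin 10 of 10 fell (median -2.87), and in vehicle skin 0 of 10 were called by limma, 0 also at an unadjusted p under 0.05 (median 0.28). Tyrp1 (chr4:80834123-80851736), an enzyme of brown and black pigment synthesis, was at 4.78, 4.21, 3.87 and 4.48 RPKM in unwounded vehicle skin and 4.62, 14.4, 4.81 and 4.83 in vehicle wounded skin. It was at 107, 66.3 and 71.6 RPKM in unwounded tamoxifen skin and 5.86, 6.14, 21.2 and 3.86 in tamoxifen wounded skin. The unwounded tamoxifen libraries were the highest and overlapped no other group, and replicate 2 of vehicle wounded skin and replicate 3 of tamoxifen wounded skin were the highest of their groups. Its wound response was -3.34 ± 0.47 in tamoxifen skin and 0.50 ± 0.43 in vehicle skin, an interaction of -3.83 ± 0.63 (SE, adjusted p = 0.000529).

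Tyr (chr7:87424771-87493512), the rate-limiting enzyme of melanin synthesis, had the smallest p of the list. It was at 0.703, 0.631, 0.758 and 0.693 RPKM in unwounded vehicle skin, 0.955, 1.95, 0.74 and 0.848 in vehicle wounded, 12.7, 9.55 and 9.2 in unwounded tamoxifen and 1.22, 1.18, 2.6 and 0.932 in tamoxifen wounded skin. Only the unwounded tamoxifen libraries exceeded 3 RPKM, and its interaction was -2.91 ± 0.35 (SE, adjusted p = 7.14e-05). Mlana and Pmel, proteins of the melanosome, had interactions of -3.99 ± 0.81 (SE, adjusted p = 0.002) and -3.69 ± 0.65 (SE, adjusted p = 0.00078). Trpm1, a cation channel of melanocytes, was at -3.83 ± 0.62 (SE, adjusted p = 0.000456), and Gpr143, a receptor of the melanosome, at -2.50 ± 0.31 (SE, adjusted p = 0.000101). Gpr143 and 2 other members of the list passed the filter on low values only through unwounded tamoxifen skin, where they are high, so the count of 10 is a description. They are among 4 of the 10 that passed it through the tamoxifen libraries alone. Kit and Mitf, which melanocytes share with other cells, showed smaller values of -0.89 ± 0.25 (SE, adjusted p = 0.0125) and -0.71 ± 0.19 (SE, adjusted p = 0.0102). Without replicate 2 of vehicle wounded skin all 10 members were still called, with a median of -2.83.

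The promoters of Tyr and Tyrp1 are shown because these genes moved together and because MITF, the regulator of pigment cells, is known to bind an E-box with the letters CATGTG. The windows run from 250 bases before the gene's start to 50 after it, 5′ to 3′ on the gene's strand, from RefSeq (GRCm38.p6), with a match on either strand in capitals. Tyr is at chr7:87493463-87493762 on the minus strand and Tyrp1 at chr4:80833963-80834262 on the plus strand.
Tyr: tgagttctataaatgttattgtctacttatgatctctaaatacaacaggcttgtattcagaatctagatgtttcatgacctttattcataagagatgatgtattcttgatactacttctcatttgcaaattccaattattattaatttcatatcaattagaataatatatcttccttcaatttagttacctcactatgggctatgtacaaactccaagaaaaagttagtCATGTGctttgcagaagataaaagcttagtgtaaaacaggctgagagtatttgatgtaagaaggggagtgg
Tyrp1: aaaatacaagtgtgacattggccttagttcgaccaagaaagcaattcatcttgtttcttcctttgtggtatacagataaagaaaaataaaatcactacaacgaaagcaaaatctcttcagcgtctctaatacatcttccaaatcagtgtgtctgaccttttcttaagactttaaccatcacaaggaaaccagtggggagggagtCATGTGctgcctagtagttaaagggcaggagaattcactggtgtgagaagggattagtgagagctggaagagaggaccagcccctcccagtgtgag
A promoter was found for 6 of the 10 melanocyte genes, and 4 of the 6 (66.7%) held CATGTG on either strand, against 14.1% of all 27025 promoters. Among the 10673 tested genes with a promoter the share with CATGTG was 8.87%. Dct held it at 2 places, Oca2, Tyr and Tyrp1 at 1 each, and Kit and Mitf at none. A match describes the letters in the window and is not a binding site.

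Cell cycle genes showed another layout: they rose after wounding in vehicle skin and had almost no call in tamoxifen skin. Of 20 tested members, 18 had a lower interaction and 0 a higher one (median -1.01). In vehicle skin 19 of 20 rose (median 0.97), while in tamoxifen skin 1 rose and 1 fell (median -0.03). Ccnb1 (chr13:100778739-100786486), the cyclin that drives entry into mitosis, was at 8.58, 8.54, 6.68 and 5.84 RPKM in unwounded vehicle skin and 18.4, 20.4, 17.1 and 20.4 in vehicle wounded skin. In tamoxifen skin it was at 25.5, 21.6 and 17.7 RPKM unwounded and 20.8, 21.5, 20.6 and 19.6 wounded. Only unwounded vehicle skin was low, and the ranges of the other 3 groups overlapped. The interaction of Ccnb1 was -1.37 ± 0.18 (SE, adjusted p = 0.000137), with a wound response of 1.32 ± 0.12 in vehicle skin and -0.05 ± 0.13 in tamoxifen skin.

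Ccnb2, a second mitotic cyclin, had an interaction of -1.37 ± 0.18 (SE, adjusted p = 0.000125), Plk1, a mitotic kinase, -1.34 ± 0.24 (SE, adjusted p = 0.000902), and Cdc20, an activator of the anaphase-promoting complex, -1.38 ± 0.20 (SE, adjusted p = 0.000235). The proliferation marker Mki67 had -0.99 ± 0.21 (SE, adjusted p = 0.00275). Replication factors moved less: Mcm2 had -0.49 ± 0.15 (SE, adjusted p = 0.0218) and Pcna -0.32 ± 0.12 (SE, adjusted p = 0.049), and Mcm3 and Mcm6 did not pass (-0.25 ± 0.15 (SE, adjusted p = 0.199) and -0.26 ± 0.15 (SE, adjusted p = 0.164)). The mean log2(RPKM + 0.5) over the list was 2.87 to 3.21 in unwounded vehicle libraries, 3.82 to 4.08 in vehicle wounded, 3.81 to 4.34 in unwounded tamoxifen and 3.98 to 4.13 in tamoxifen wounded libraries. The unwounded vehicle range thus lay below the other 3, which overlapped one another. When one library at a time was left out, 16 to 20 members were called lower.

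The promoter of Ccnb2 is shown because mitotic genes are known for a pair of elements, the CHR with the letters TTTGAA and the CCAAT box. It lies at chr9:70421505-70421804 on the minus strand (RefSeq, GRCm38.p6), with 2 CHR matches and 3 CCAAT matches, on either strand, in capitals.
Ccnb2: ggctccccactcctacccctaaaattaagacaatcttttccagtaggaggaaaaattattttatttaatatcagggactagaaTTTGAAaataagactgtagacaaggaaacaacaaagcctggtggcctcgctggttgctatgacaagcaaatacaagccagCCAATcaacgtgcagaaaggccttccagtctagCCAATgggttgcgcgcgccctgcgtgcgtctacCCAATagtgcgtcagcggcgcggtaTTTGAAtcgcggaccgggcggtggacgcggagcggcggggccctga
Of 17 cell cycle genes with a promoter in the table, 8 (47.1%) held TTTGAA and 15 (88.2%) held CCAAT on either strand, against 18.1% and 37.9% of all promoters. Among promoters of tested genes these shares were 12.5% and 38.5%.

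Genes of the hair shaft and its sheath were highest in unwounded tamoxifen skin and lower in tamoxifen wounded skin. The mean log2(RPKM + 0.5) of hair shaft keratins was 8.03 to 8.68 in unwounded tamoxifen, 5.19 to 6.30 in tamoxifen wounded, -0.17 to 0.23 in unwounded vehicle and -0.38 to 4.47 in vehicle wounded libraries. That of inner root sheath genes was 8.88 to 9.48, 6.64 to 7.44, 0.96 to 1.53 and 1.02 to 5.83 in the same order, so the sheath list was not near 0 in vehicle skin. Through the tamoxifen libraries alone 11 of 12 tested shaft keratins, 11 of 18 keratin-associated proteins and 4 of 13 sheath genes passed the filter on low values, so the counts are a description. Of 12 hair shaft keratins 10 had a lower interaction (median -3.86), of 18 tested keratin-associated proteins 4 (median -3.14) and of 13 inner root sheath genes 6 (median -3.70), and 0 were higher. The 4 of 18 are near the share of all tested genes, of which 20.2% were lower. Without replicate 2 of vehicle wounded skin the counts were 11, 11 and 12, with medians of -2.58, -1.86 and -2.18. Without its replicate 1 or 4 there were 9 or 11 keratin-associated proteins and 12 sheath genes, and without replicate 2 of unwounded tamoxifen skin 8 keratin-associated proteins. Krt82 (chr15:101541216-101550659), a keratin of the hair cuticle, was at 59.5, 41.8 and 54.9 RPKM in unwounded tamoxifen skin and 5.84, 11.2, 14.5 and 11.8 in tamoxifen wounded skin. It was at 0.0874, 0.219, 0.165 and 0.105 RPKM in unwounded vehicle skin and 0.0347, 4.11, 0.0792 and 0.0152 in vehicle wounded skin. The tamoxifen groups did not overlap each other, and the libraries of the vehicle groups were all far lower except replicate 2 of the wounded set. Its interaction of -2.79 ± 0.81 (SE, adjusted p = 0.0148) lost its call with an offset of 0.1 in place of 0.5 (adjusted p = 0.0944).

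Tgm3, the transglutaminase that hardens the hair and its sheath, moved in opposite directions. It was at 3.08, 3.49, 2.43 and 2.75 RPKM in unwounded vehicle skin, 9.99, 20.4, 10.3 and 15.7 in vehicle wounded, 31.6, 50.8 and 55.2 in unwounded tamoxifen and 11.5, 11.7, 16.8 and 10.8 in tamoxifen wounded skin. All vehicle wounded libraries were above all unwounded vehicle ones, while all tamoxifen wounded libraries were below all unwounded tamoxifen ones. Its interaction was -3.83 ± 0.34 (SE, adjusted p = 1.61e-05). Vsig8, known from the hair shaft, had -3.78 ± 0.99 (SE, adjusted p = 0.00857), Krt36 -2.51 ± 0.60 (SE, adjusted p = 0.00529), Krtap16-1 -3.36 ± 0.83 (SE, adjusted p = 0.00617), Krtap19-4 -3.62 ± 1.09 (SE, adjusted p = 0.0174) and Krtap19-1 -3.76 ± 1.17 (SE, adjusted p = 0.0209). The call of Krtap19-1 was lost with an offset of 0.1 (adjusted p = 0.0524) and without replicate 3 of unwounded tamoxifen skin (adjusted p = 0.0533). The counts rest on single libraries: without replicate 4 of unwounded tamoxifen skin 2 shaft keratins and 2 sheath genes were called lower, and without replicate 3 of that group 3, 2 and, of the keratin-associated proteins, 1. Without replicate 1 of tamoxifen wounded skin the counts were 3, 2 and 2 in the order shaft, sheath and associated proteins, and without replicate 1, 2 or 3 of unwounded vehicle skin 6, 6 and 5 shaft keratins were called.

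Of 12 transcription factors of the follicle, 10 had a lower interaction (median -1.72), all 12 fell in tamoxifen skin (median -1.78), and in vehicle skin 2 rose and 1 fell (median -0.14). Cux1, a homeodomain factor, had -1.30 ± 0.12 (SE, adjusted p = 2.36e-05) and Dlx4 -2.71 ± 0.30 (SE, adjusted p = 4.95e-05). Dlx3, which drives hair keratin genes and was counted in the inner root sheath list, had -2.53 ± 0.58 (SE, adjusted p = 0.00417). Foxn1, the factor missing in nude mice, had -2.45 ± 0.33 (SE, adjusted p = 0.000136), and Lef1, the partner of beta-catenin in the hair matrix, -1.95 ± 0.52 (SE, adjusted p = 0.00936). When one library at a time was left out, 10 to 11 of the 12 were called lower. Without replicate 2 of vehicle wounded skin 10 were, with a median of -1.46. Through the tamoxifen libraries alone 2 of the 12 passed the filter on low values, so these counts are a description.

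Of 18 tested hedgehog, WNT and BMP signals of the follicle, 10 were lower and 1 higher (median -0.78). These counts are a description, since 3 of the 18 passed the filter on low values through the tamoxifen libraries alone. Another 1 passed it through the vehicle libraries alone. Without replicate 2 of vehicle wounded skin 9 signals were lower and 1 higher, with a median of -0.71. Shh, the ligand of the growth phase, had -1.93 ± 0.57 (SE, adjusted p = 0.0158), Wnt11 -1.54 ± 0.22 (SE, adjusted p = 0.000186), and Fgf5, which ends the growth phase, -2.38 ± 0.45 (SE, adjusted p = 0.00121). Of 10 dermal papilla genes 3 were lower and 1 higher (median -0.16), with Corin, a protease of the papilla, at -1.37 ± 0.23 (SE, adjusted p = 0.000625) and the R-spondin Rspo3 at -1.18 ± 0.21 (SE, adjusted p = 0.000761). In this list 2 of the 10 passed the filter only through unwounded tamoxifen skin, so its counts are a description too. Its 3 of 10 lower stand beside 20.2% of all tested genes. Without replicate 2 of vehicle wounded skin 2 papilla genes were lower and 1 higher, with a median of -0.14. Of 12 stem cell and outer root sheath genes 2 were higher and 0 lower (median 0.05), a share under the 19.7% of all tested genes. Without replicate 3 of vehicle wounded skin 3 were lower and without its replicate 2 it was 1. The 2 higher ones were Cd34, a marker of bulge cells that fibroblasts and vessels also carry (0.98 ± 0.25 (SE, adjusted p = 0.00718)), and Nfatc1, a factor of resting stem cells (0.90 ± 0.14 (SE, adjusted p = 0.000348)).

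Wound-activated keratinocyte genes rose in both treatments by similar medians, 3.05 in tamoxifen skin (19 of 25 rose) and 3.03 in vehicle skin (24 of 25). Within the list the interaction went both ways: 12 members were higher and 4 lower, with a median of 0.47. Krt6b (chr15:101676023-101680293), a stress keratin of activated epidermis, was at 154, 202, 51.7 and 29.3 RPKM in unwounded vehicle skin and 3.58, 5.99 and 2.83 in unwounded tamoxifen skin. After wounding it was at 1847, 1949, 1679 and 2079 RPKM in vehicle skin and 2401, 1718, 2030.4 and 1816 in tamoxifen skin. The wounded groups overlapped, and the unwounded groups did not, so that the rise was 8.79 ± 0.50 in tamoxifen skin and 4.49 ± 0.46 in vehicle skin. The interaction was 4.30 ± 0.68 (SE, adjusted p = 0.000394). Krt16, another stress keratin, had 2.23 ± 0.71 (SE, adjusted p = 0.0228), and Sprr2d, a cornified envelope protein, 3.36 ± 0.51 (SE, adjusted p = 0.000306). Sprr2a1 and Sprr2a2, near-identical copies that hold the same value in every library and cannot be separated, had 4.62 ± 0.56 (SE, adjusted p = 8.5e-05).

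Gjb2 (chr14:57098602-57104702), the gap junction protein connexin 26, took the other direction. It was at 26.7, 25.1, 11.9 and 9.87 RPKM in unwounded vehicle skin, 237, 249, 197 and 189 in vehicle wounded, 427, 549.9 and 550.0 in unwounded tamoxifen and 557, 549.7, 471 and 552 in tamoxifen wounded skin. Both tamoxifen groups lay above both vehicle groups and overlapped each other. It rose in vehicle skin by 3.65 ± 0.26 and had no call in tamoxifen skin (0.07 ± 0.28), an interaction of -3.58 ± 0.38 (SE, adjusted p = 4.47e-05). Its neighbour in function Gjb6, connexin 30, had -2.87 ± 0.38 (SE, adjusted p = 0.000131), Sprr2h -2.57 ± 0.84 (SE, adjusted p = 0.0256) and Sfn, the epithelial 14-3-3 protein, -0.89 ± 0.30 (SE, adjusted p = 0.028). These 4 are all members called lower, and without replicate 3 or 4 of unwounded tamoxifen skin, or replicate 3 of unwounded vehicle skin, 2 were. Without replicate 2 of unwounded vehicle skin 6 members were lower.

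The stefins, inhibitors of cysteine proteases encoded by a cluster of close copies, held the named gene of highest interaction. Stfa1 (chr16:36277148-36285371) was at 84.5, 75, 26.4 and 22.1 RPKM in unwounded vehicle skin, 0.914, 2.1 and 9.08e-07 in unwounded tamoxifen skin, 445, 584, 314 and 443 in vehicle wounded skin and 597, 403, 438 and 350.3 in tamoxifen wounded skin. As with Krt6b, the wounded groups overlapped and the unwounded groups did not. Its interaction was 5.19 ± 0.72 (SE, adjusted p = 0.000182), that of Stfa3 4.0 ± 0.67 (SE, adjusted p = 0.000554) and that of BC100530 4.22 ± 0.77 (SE, adjusted p = 0.000949). Reads on these copies could be split among them by the authors' counting, so single members are uncertain. Of all 16 epithelial antimicrobial and stefin genes, 6 were higher and 2 lower (median 0.83). The 2 lower ones, the acute phase protein Saa3 (-1.66 ± 0.57 (SE, adjusted p = 0.0341)) and the beta-defensin Defb3 (-1.48 ± 0.55 (SE, adjusted p = 0.0471)), did not keep their calls when single libraries were left out, which left 0 to 3 called. Spink12, a serine protease inhibitor, was at 0.183, 0.103, 0.215 and 0.0449 RPKM in unwounded vehicle skin, 19.5, 22.3, 15.7 and 15.8 in vehicle wounded, 1.48, 36 and 36 in unwounded tamoxifen and 28.3, 43.7, 16 and 38.5 in tamoxifen wounded skin. It rose by 4.88 ± 0.70 in vehicle skin, and its interaction was -3.76 ± 1.03 (SE, adjusted p = 0.011).

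**Figure D3:**
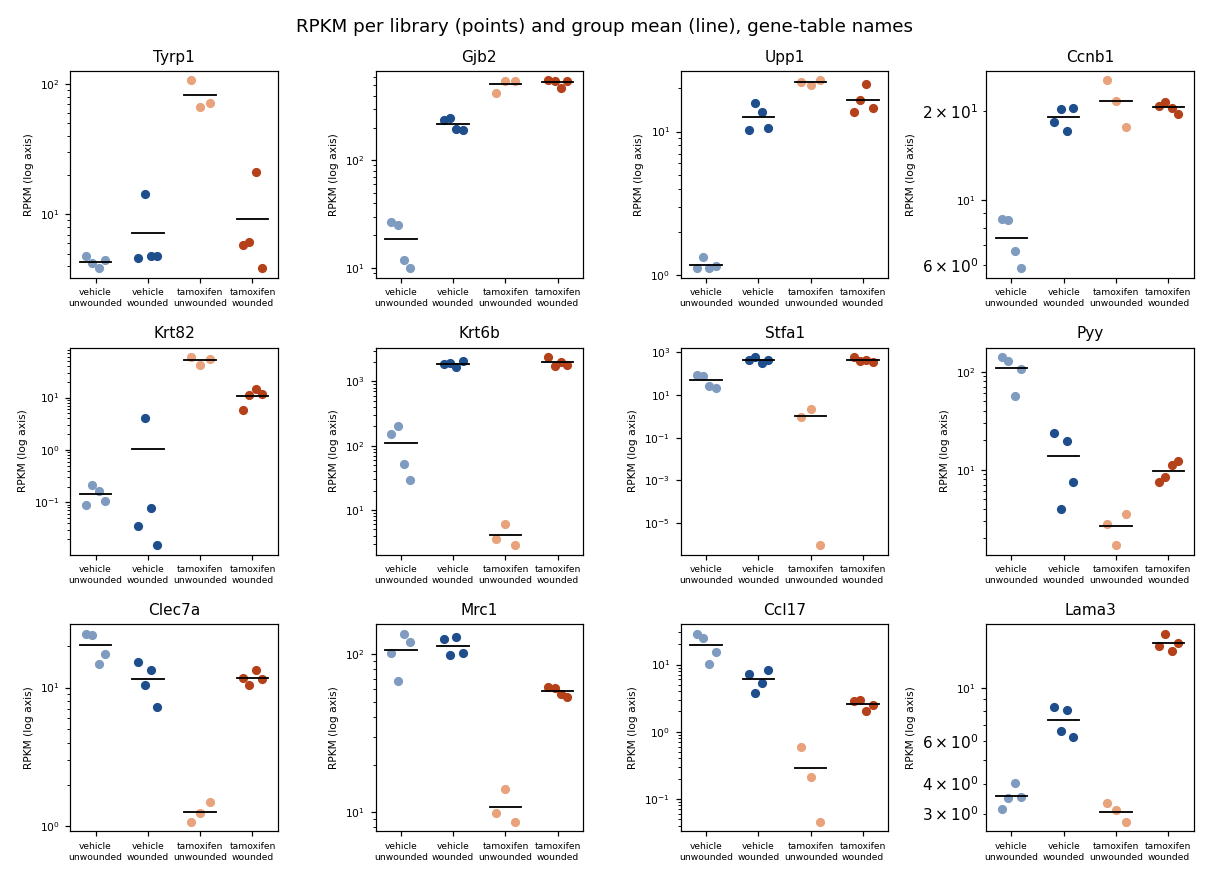
RPKM of 12 genes on a log axis, with a point for each library and a line at the group mean, in unwounded and wounded skin of each treatment. For Krt6b, Stfa1, Pyy and Clec7a the unwounded groups are apart and the wounded groups overlap, and for Lama3 the unwounded groups overlap and the wounded groups are apart.

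Basal and differentiated keratinocyte genes also held members in both directions. Of 11 basal genes 6 were higher and 2 lower (median 0.58). Itga6 and Col17a1, parts of the hemidesmosome that anchors the epidermis, had 0.74 ± 0.11 (SE, adjusted p = 0.000297) and 1.0 ± 0.16 (SE, adjusted p = 0.000414), and the lower pair were the cadherin Cdh3 (-1.0 ± 0.20 (SE, adjusted p = 0.00167)) and the integrin Itga3 (-0.66 ± 0.20 (SE, adjusted p = 0.0198)). Of 19 differentiated genes 7 were higher and 2 lower (median 0.71), and without replicate 4 of vehicle wounded skin 11 were higher. Krt77, a suprabasal keratin, fell in both treatments, by -2.73 ± 0.24 in vehicle skin and -0.81 ± 0.26 in tamoxifen skin, and had 1.92 ± 0.35 (SE, adjusted p = 0.000958). Krtdap, a secreted protein of differentiating keratinocytes, rose by 1.36 ± 0.19 in tamoxifen skin, was at -0.12 ± 0.17 in vehicle skin with no call, and had 1.47 ± 0.26 (SE, adjusted p = 0.000751).

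EGFR ligands and receptors, which drive keratinocyte migration, were close to the background: of 16 tested, 3 were higher and 2 lower (median 0.16). Adam17, the protease that sheds these ligands, had 0.61 ± 0.10 (SE, adjusted p = 0.000537), and Tgfa, a ligand, -0.86 ± 0.20 (SE, adjusted p = 0.00447). The other called members, named after their values were seen, were the ligand Epgn (1.24 ± 0.39 (SE, adjusted p = 0.0208)), the feedback inhibitor Errfi1 (0.80 ± 0.24 (SE, adjusted p = 0.0169)) and the ligand Nrg1 (-0.98 ± 0.23 (SE, adjusted p = 0.0048)). Without replicate 2 of unwounded tamoxifen skin 5 were higher. Hbegf rose in both treatments, by 2.05 ± 0.23 in tamoxifen and 1.97 ± 0.22 in vehicle skin, with an interaction of 0.08 ± 0.32 (SE, adjusted p = 0.862) that did not pass. Of 20 ERK response genes 1 was higher and 4 lower (median 0.01), beside 19.7% higher and 20.2% lower of all tested genes, so the lower count is near the background. Among the lower were the phosphatase Dusp5 (-1.2 ± 0.30 (SE, adjusted p = 0.00635)) and the ephrin receptor Epha4 (-0.88 ± 0.21 (SE, adjusted p = 0.00488)). The higher one was the AP-1 subunit Fosl1 (1.08 ± 0.41 (SE, adjusted p = 0.049)). No member was higher with median-of-ratios scaling or without each of 8 of the 15 libraries, and 3 were higher without replicate 2 of unwounded tamoxifen skin.

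Genes that moved in opposite directions in the 2 treatments numbered 678. All of them passed the interaction, which is the difference of the same 2 responses, so passing adds nothing to the opposite calls. Upp1 (chr11:9118008-9136170), uridine phosphorylase, had the smallest p of those that rose in vehicle skin and fell in tamoxifen skin. It was at 1.12, 1.33, 1.11 and 1.15 RPKM in unwounded vehicle skin, 10.2, 15.8, 13.7 and 10.6 in vehicle wounded, 22.2, 21 and 22.8 in unwounded tamoxifen and 13.7, 16.7, 21.5 and 14.6 in tamoxifen wounded skin. The unwounded groups were far apart, while the wounded groups overlapped. It rose by 2.94 ± 0.14 in vehicle skin and fell by 0.41 ± 0.15 on the log2 scale in tamoxifen skin, an interaction of -3.36 ± 0.21 (SE, adjusted p = 2.72e-06). Lpcat4, an acyltransferase of phospholipids, had -1.90 ± 0.12 (SE, adjusted p = 2.72e-06), Gprc5a, an orphan receptor of epithelia, -3.52 ± 0.24 (SE, adjusted p = 3.01e-06), and Ahcy, which clears S-adenosylhomocysteine, -1.27 ± 0.10 (SE, adjusted p = 9.65e-06).

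Of the 230 genes that rose in tamoxifen skin and fell in vehicle skin, Fam3b, a secreted cytokine-like protein, had the smallest p (2.26 ± 0.17 (SE, adjusted p = 9.65e-06)). Clec7a (chr6:129461591-129472785), the beta-glucan receptor Dectin-1 of myeloid cells, was at 24.4, 24, 14.7 and 17.6 RPKM in unwounded vehicle skin, 15.4, 10.4, 13.3 and 7.22 in vehicle wounded, 1.07, 1.24 and 1.51 in unwounded tamoxifen and 11.7, 10.5, 13.4 and 11.5 in tamoxifen wounded skin. Unwounded tamoxifen libraries were the lowest and overlapped no other group, and the wounded groups overlapped. Its interaction was 3.59 ± 0.30 (SE, adjusted p = 1.45e-05). Has2, a hyaluronan synthase, had 2.80 ± 0.25 (SE, adjusted p = 1.75e-05), and Tslp, an epithelial cytokine, 2.45 ± 0.24 (SE, adjusted p = 2.44e-05). Pyy, peptide YY, fell in vehicle skin by 3.17 ± 0.46 on the log2 scale and rose in tamoxifen skin by 1.72 ± 0.50. Its levels were 141, 129.8, 55.9 and 107 RPKM in unwounded vehicle, 23.8, 3.98, 19.6 and 7.41 in vehicle wounded, 2.76, 1.69 and 3.56 in unwounded tamoxifen and 7.55, 8.38, 11.1 and 12.2 in tamoxifen wounded skin, an interaction of 4.88 ± 0.68 (SE, adjusted p = 0.000176).

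Macrophage genes rose more in tamoxifen skin, where the unwounded level was low. Of 15 monocyte and macrophage markers 12 were higher and 1 lower in the interaction (median 2.35), with median wound responses of 2.86 in tamoxifen and 0.83 in vehicle skin. Of 14 resident macrophage genes 13 were higher and 0 lower (median 1.99). In tamoxifen skin 11 of the 14 rose and 2 fell (median 1.95), and in vehicle skin 1 rose and 2 fell (median -0.24). Mrc1 (chr2:14229414-14332023), the mannose receptor CD206, was at 102, 67.8, 134 and 119 RPKM in unwounded vehicle skin and 124, 99, 128 and 102 in vehicle wounded skin. It was at 9.84, 14 and 8.64 RPKM in unwounded tamoxifen skin and 61.9, 60.9, 55.8 and 53.3 in tamoxifen wounded skin. The vehicle groups overlapped each other, and tamoxifen wounded libraries lay between them and the unwounded tamoxifen ones. Its interaction was 2.26 ± 0.28 (SE, adjusted p = 8.5e-05).

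Stab1, a scavenger receptor, had 2.68 ± 0.33 (SE, adjusted p = 9.55e-05), Ms4a7, a macrophage membrane protein, 2.67 ± 0.33 (SE, adjusted p = 9.49e-05), and Adgre1, which encodes F4/80, 2.50 ± 0.33 (SE, adjusted p = 0.000125). The single lower member was Arg1, arginase 1 of repair macrophages, which rose in both treatments (2.79 ± 0.32 in tamoxifen and 4.4 ± 0.30 in vehicle skin) and had -1.60 ± 0.43 (SE, adjusted p = 0.0104). Neutrophil markers rose in both treatments, 15 of 15 in tamoxifen skin (median 4.20) and 14 of 15 in vehicle skin (median 2.95), and 5 had a higher interaction (median 1.02). Csf3r, the receptor of the neutrophil growth factor G-CSF, had 2.19 ± 0.34 (SE, adjusted p = 0.000339), and Mmp9, gelatinase B, 1.74 ± 0.35 (SE, adjusted p = 0.00186). The 5 of 15 neutrophil markers with a higher interaction stand beside 19.7% of all tested genes. Without replicate 3 of vehicle wounded skin 10 of the 15 were higher.

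Dendritic and Langerhans cell markers fell in vehicle skin for 10 of 14 members (median -0.80) and rose in tamoxifen skin for 5 (median 0.19). The interaction was higher for 12 and lower for 0 (median 1.01). Through the vehicle libraries alone 2 of the 14 passed the filter on low values, so these counts are a description. Itgax, which encodes CD11c, had 2.09 ± 0.25 (SE, adjusted p = 8.42e-05), and Ciita, the switch of MHC class II genes, 1.23 ± 0.23 (SE, adjusted p = 0.00127). Of 9 tested T cell markers 4 were higher (median 0.34), beside 19.7% of all tested genes. Among the 4 were Cd4 (1.14 ± 0.25 (SE, adjusted p = 0.00284)) and Cd2 (0.92 ± 0.27 (SE, adjusted p = 0.0146)). Through the vehicle libraries alone 2 of the 9 passed the filter, so the T cell counts are a description too. Mast cell markers had 1 higher and 1 lower of 9 (median 0.47), both under the 19.7% higher and 20.2% lower of all tested genes. Of these 9, too, 2 passed the filter through the vehicle libraries alone. The higher one was Hdc, the enzyme of histamine synthesis that other myeloid cells also use (1.60 ± 0.39 (SE, adjusted p = 0.00591)), and the lower one was Kit, shared with the melanocyte list. Of 7 B cell markers 1 passed the filter, Cd79b (0.75 ± 0.26 (SE, adjusted p = 0.0322)), and its call was lost under 10 of the alternatives. Cd79b passed the filter through the vehicle libraries alone, where it is high, so its value is a description.

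Chemokine and cytokine genes mostly had positive values. Of 23 chemokine genes 14 were higher and 1 lower (median 1.34), with median wound responses of 3.10 in tamoxifen and 0.57 in vehicle skin. Ccl17 (chr8:94809380-94812038), a ligand of CCR4 on T cells, was at 28.6, 25.1, 10.1 and 15.3 RPKM in unwounded vehicle skin, 7.33, 3.77, 5.3 and 8.28 in vehicle wounded, 0.594, 0.215 and 0.0451 in unwounded tamoxifen and 2.82, 2.98, 2.01 and 2.49 in tamoxifen wounded skin. None of the 4 groups overlapped the next. It fell in vehicle skin and rose in tamoxifen skin, an interaction of 3.57 ± 0.46 (SE, adjusted p = 0.000121). The platelet and macrophage chemokine Pf4 had 2.97 ± 0.48 (SE, adjusted p = 0.000431), and the monocyte attractants Ccl2 and Ccl7 had 2.91 ± 0.72 (SE, adjusted p = 0.00645) and 3.02 ± 0.50 (SE, adjusted p = 0.000498). The neutrophil attractants Cxcl1, Cxcl2, Cxcl3 and Cxcl5 rose in both treatments, and their interactions of 0.95, 0.66, 0.88 and 0.34 did not pass. Of 12 interleukin-1 family and inflammatory cytokine genes 7 were higher and 0 lower (median 1.12), with Osm, oncostatin M, at 2.13 ± 0.27 (SE, adjusted p = 9.69e-05) and Il18 at 1.14 ± 0.17 (SE, adjusted p = 0.000241). The cytokine count stayed at 7 when any one library was left out. Il1a, Il1rn, Tnf and Nos2 rose in both treatments, with interactions between -0.05 and 0.14 that did not pass.

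Interferon-stimulated genes rose in tamoxifen skin for 12 of 16 members (median 1.13) and were called for 0 of 16 in vehicle skin by limma (1 at an unadjusted p under 0.05, median 0.14), and 5 had a higher interaction (median 0.86). The count ranged from 3 to 10 over the libraries left out, with 10 without replicate 3 of vehicle wounded skin, 9 without its replicate 1, and 3 without its replicate 2 or 4, replicate 2 or 4 of unwounded tamoxifen, replicate 3 of unwounded vehicle or replicate 1 or 3 of tamoxifen wounded skin. The 5 of 16 stand beside 19.7% higher of all tested genes. Through the vehicle libraries alone 2 of the 16 passed the filter on low values, so these counts are a description. Oas1a (chr5:120896256-120907544), a sensor of double-stranded RNA, was at 18.8, 26.4, 22 and 17.7 RPKM in unwounded vehicle skin, 29.4, 17.3, 36 and 17 in vehicle wounded, 0.94, 2.59 and 1.88 in unwounded tamoxifen and 12.4, 9.36, 9.23 and 8.75 in tamoxifen wounded skin. The unwounded tamoxifen libraries were lowest, the tamoxifen wounded ones lay above them, and both vehicle groups lay higher still. It had 2.07 ± 0.38 (SE, adjusted p = 0.00111), and Oasl2 1.94 ± 0.43 (SE, adjusted p = 0.00335). The promoter of Oas1a, chr5:120907476-120907775 on the minus strand (RefSeq, GRCm38.p6), is shown for the core of the interferon response element, written here as GAAA, any 2 bases and GAAA again, which it holds at 2 overlapping places in capitals.
Oas1a: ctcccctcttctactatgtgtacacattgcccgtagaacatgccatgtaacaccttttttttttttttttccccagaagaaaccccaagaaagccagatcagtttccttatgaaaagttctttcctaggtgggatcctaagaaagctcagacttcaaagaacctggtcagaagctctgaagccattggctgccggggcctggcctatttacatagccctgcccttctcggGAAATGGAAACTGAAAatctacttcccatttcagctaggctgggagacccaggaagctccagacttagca
Of 12 members with a promoter in the table, 7 (58.3%) held this core on either strand, against 3.49% of all promoters and 3.24% of those of tested genes.

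**Figure D4:**
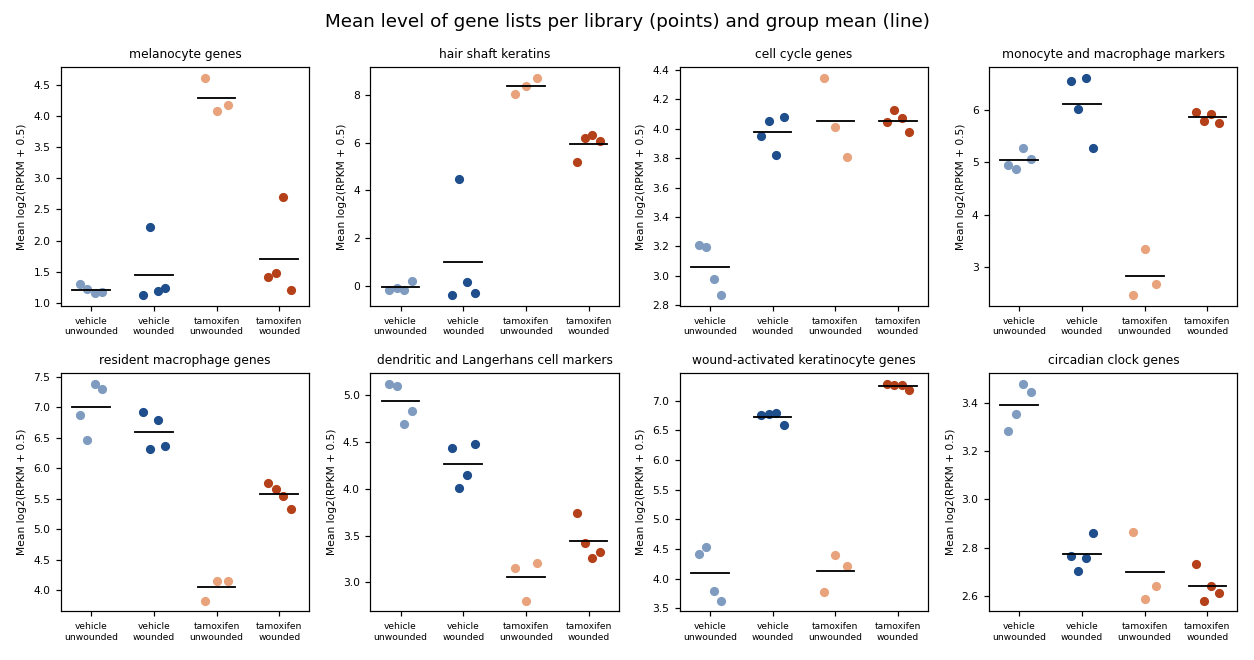
Mean log2(RPKM + 0.5) over the tested members of 8 gene lists, with a point for each library and a line at the group mean. Cell cycle genes are low in unwounded vehicle skin alone, melanocyte genes are high in unwounded tamoxifen skin alone, and macrophage markers are low in unwounded tamoxifen skin alone.

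Stromal lists had positive medians as well. Of 14 fibroblast markers 9 were higher and 1 lower (median 0.78), with the growth factor receptors Pdgfra and Pdgfrb at 1.22 ± 0.21 (SE, adjusted p = 0.000738) and 0.93 ± 0.17 (SE, adjusted p = 0.000884). The lower one was Dpp4, a marker of some fibroblasts (-0.90 ± 0.22 (SE, adjusted p = 0.00652)). Of 16 fibrillar collagen and matrix assembly genes 7 were higher (median 0.99), led by P4ha2, a collagen prolyl hydroxylase (1.77 ± 0.34 (SE, adjusted p = 0.00133)), and the fibrillin Fbn1 (1.38 ± 0.29 (SE, adjusted p = 0.00245)). Both counts rest on single libraries. Without replicate 4 of unwounded tamoxifen skin 4 fibroblast markers and 3 collagen genes were higher, without replicate 3 they were 5 and 4, and without replicate 2 there were 12 collagen genes. The collagen count was 4 without replicate 3 or 4 of unwounded vehicle skin, replicate 2 of vehicle wounded skin, or replicate 1 or 3 of tamoxifen wounded skin.

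Matrix metalloproteinases, which cut the matrix ahead of migrating cells, rose in tamoxifen skin for 11 of 11 members (median 3.17) and in vehicle skin for 9 (median 1.49). The interaction was higher for 9 and lower for 0 (median 1.54), and for 9 to 10 when single libraries were left out. Mmp12, macrophage elastase, was at 15.7, 13.6, 7.15 and 7.76 RPKM in unwounded vehicle skin, 30.1, 23, 24.9 and 12.7 in vehicle wounded, 0.501, 0.769 and 0.501 in unwounded tamoxifen and 15.2, 15.1, 10.6 and 13.5 in tamoxifen wounded skin. All unwounded tamoxifen values were under 1 RPKM, and the wounded groups overlapped. It had 2.67 ± 0.40 (SE, adjusted p = 0.000266), and Mmp19 1.88 ± 0.32 (SE, adjusted p = 0.000582).

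Of 16 wound matrix and myofibroblast genes 7 were higher and 1 lower (median 0.88). The higher ones included the thrombospondin Thbs2 (2.08 ± 0.38 (SE, adjusted p = 0.00099)). The lower one was Lrrc15, a membrane protein of matrix-making fibroblasts, which was at 2.06, 1.09, 0.808 and 0.751 RPKM in unwounded vehicle skin, 7.11, 13.2, 9.49 and 5.39 in vehicle wounded, 86.9, 119 and 106 in unwounded tamoxifen and 31, 50.4, 53.6 and 56.6 in tamoxifen wounded skin. It rose in vehicle skin and fell in tamoxifen skin without overlap of wounded and unwounded libraries in either, an interaction of -3.60 ± 0.41 (SE, adjusted p = 5.63e-05). Growth factors of the wound had 6 of 15 higher and 0 lower (median 0.33), with Tgfb1, which drives matrix synthesis, at 1.21 ± 0.14 (SE, adjusted p = 6.12e-05) and Igf1 at 1.81 ± 0.25 (SE, adjusted p = 0.000186). Through the vehicle libraries alone 2 of the 15 passed the filter on low values, so the growth factor counts are a description. Endothelial markers had 7 of 11 higher and 0 lower (median 0.44), with the VEGF receptors Flt1 and Kdr at 0.98 ± 0.14 (SE, adjusted p = 0.000242) and 0.73 ± 0.19 (SE, adjusted p = 0.00791). Smooth muscle and pericyte markers had 0 of 10 called by limma and 0 at an unadjusted p under 0.05 (median 0.32), with the smallest p for Rgs5 (0.37 ± 0.18 (SE, adjusted p = 0.108)) and Mylk (0.56 ± 0.28 (SE, adjusted p = 0.123)), and both had a p that passed without replicate 2 of unwounded tamoxifen skin (adjusted p = 0.0279 and adjusted p = 0.0169).

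Hypoxia and glycolysis genes rose in tamoxifen skin for 14 of 16 members (median 1.0) and in vehicle skin for 8 (median 0.48). The interaction was higher for 11 and lower for 1 (median 0.73). Slc2a1, the glucose transporter GLUT1, was at 40.7, 38.2, 23.3 and 27 RPKM in unwounded vehicle skin, 69.6, 61.5, 67.8 and 72.4 in vehicle wounded, 15.9, 21.9 and 20.1 in unwounded tamoxifen and 109, 97.1, 99.8 and 102 in tamoxifen wounded skin. The tamoxifen groups held both the lowest and the highest values, with no overlap between any of the 4 groups. Its interaction was 1.29 ± 0.22 (SE, adjusted p = 0.000717), and that of Slc16a3, the lactate exporter MCT4, 1.95 ± 0.29 (SE, adjusted p = 0.000245). Respiratory chain and citric acid cycle genes were close to the median of all genes: 0 of 18 were higher and 2 lower (median -0.04), and medians of the wound response were -0.30 in tamoxifen and -0.29 in vehicle skin. The lower pair, Sdhb (-0.32 ± 0.09 (SE, adjusted p = 0.0165)) and Cox5a (-0.32 ± 0.11 (SE, adjusted p = 0.0367)), moved little. Cox5a lost its call without each of 10 of the 15 libraries. Complement and coagulation genes had 7 of 16 higher and 0 lower (median 0.53), led by Plaur, the urokinase receptor (2.11 ± 0.24 (SE, adjusted p = 6.02e-05)), and its ligand Plau (1.21 ± 0.20 (SE, adjusted p = 0.000445)). Through the vehicle libraries alone 2 of these 16 passed the filter on low values, so the complement and coagulation counts are a description.

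Circadian clock genes fell in vehicle skin for 12 of 15 members (median -0.47) and were mostly uncalled in tamoxifen skin, where 3 rose and 4 fell (median -0.10). The interaction was higher for 11 and lower for 1 (median 0.51), and for 8 to 11 higher when single libraries were left out. Ciart (chr3:95878500-95882257), a repressor within the clock, was at 11.6, 11.9, 14.1 and 13.9 RPKM in unwounded vehicle skin, 6.17, 5.65, 5.79 and 6.39 in vehicle wounded, 4.73, 3.39 and 3.43 in unwounded tamoxifen and 4.28, 3.54, 3.83 and 4.0 in tamoxifen wounded skin. The tamoxifen groups overlapped, and the vehicle groups did not. Its interaction was 1.07 ± 0.15 (SE, adjusted p = 0.000156), while the repressor Cry1 went the other way with -0.71 ± 0.09 (SE, adjusted p = 0.000121). No label gives the hour of sampling, and a difference in hour between groups was not tested. The promoter of Ciart, chr3:95882179-95882478 on the minus strand (RefSeq, GRCm38.p6), holds the clock's E-box CACGTG at 3 places, in capitals.
Ciart: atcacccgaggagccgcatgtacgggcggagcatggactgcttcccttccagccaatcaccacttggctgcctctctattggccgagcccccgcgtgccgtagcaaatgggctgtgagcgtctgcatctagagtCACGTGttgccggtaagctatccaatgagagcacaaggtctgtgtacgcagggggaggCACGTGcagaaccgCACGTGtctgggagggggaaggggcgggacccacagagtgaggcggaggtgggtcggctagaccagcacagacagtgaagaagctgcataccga
Of 14 clock genes with a promoter in the table, 5 (35.7%) held CACGTG, against 7.24% of all promoters and 10% of those of tested genes.

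**Figure D5:**
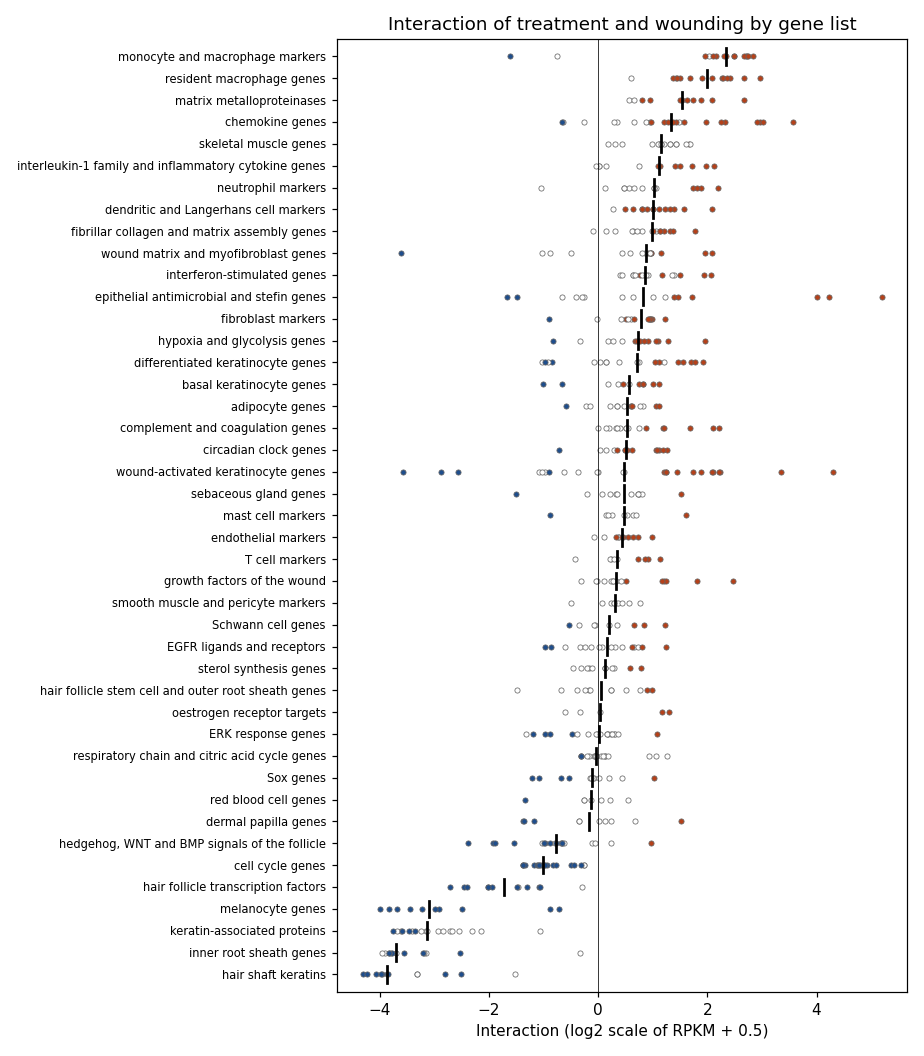
Interaction (log2 scale) of every tested member of the gene lists with at least 5 tested members, filled where the member passed the threshold (red higher, blue lower) and open where it did not, with a bar at the median. The medians run from -3.86 for hair shaft keratins to 2.35 for monocyte and macrophage markers.

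A smaller set of genes had an interaction while the treatments differed little before wounding. Of the 5565 genes called in the interaction, 284 had no called treatment difference in unwounded skin, 163 higher and 121 lower. In 707 genes the interaction was called and the 95% confidence interval of the unwounded treatment difference lay within 0.5 on the log2 scale, 286 higher and 421 lower, of 5151 tested genes with such an interval. That interval does not make the treatments level: 498 of the 707 had a called, small unwounded difference, and in 501 the treatment difference was larger in unwounded than in wounded skin. The genes named from this set were chosen after the values were seen. Lama3, a laminin chain of the epidermal basement membrane, was at 3.14, 3.48, 4.01 and 3.52 RPKM in unwounded vehicle and 3.31, 3.1 and 2.77 in unwounded tamoxifen skin, which overlapped. After wounding it was at 8.34, 6.62, 8.08 and 6.22 RPKM in vehicle and 15, 16.8, 14.2 and 15.4 in tamoxifen skin, with no overlap. It rose by 0.95 ± 0.10 and 2.15 ± 0.10, an interaction of 1.2 ± 0.14 (SE, adjusted p = 6.74e-05).

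Outside this set, another laminin chain of the epidermis, Lamb3, had 1.24 ± 0.12 (SE, adjusted p = 2.36e-05), with unwounded levels of 15.2, 16.7, 18.3 and 17.2 RPKM in vehicle and 12.9, 12 and 12.5 in tamoxifen skin that did not overlap. Within the set, the glycosyltransferase B3gnt3 had 1.14 ± 0.14 (SE, adjusted p = 8.5e-05) and the lectin-like Clec2e 1.78 ± 0.25 (SE, adjusted p = 0.000172). The lower genes of smallest p were the methyltransferase-like Wbscr27 (-0.76 ± 0.11 (SE, adjusted p = 0.000181)), Zcchc17 (-0.44 ± 0.07 (SE, adjusted p = 0.000575)), the Mediator subunit Med17 (-0.37 ± 0.06 (SE, adjusted p = 0.000639)) and the palmitoyltransferase Zdhhc24 (-0.45 ± 0.08 (SE, adjusted p = 0.000717)). Each had a called unwounded difference, tamoxifen over vehicle, of 0.26, 0.30, 0.31 and 0.25 (log2), beside -0.50, -0.14, -0.06 and -0.20 in wounded skin, so for Zcchc17, Med17 and Zdhhc24 the unwounded difference is the larger part of the interaction. Under the sample titles the interaction of Lama3, Lamb3, B3gnt3 and Clec2e had the opposite sign (-0.84, -0.41, -0.75 and -1.93).

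Of 116 genes that rose by at least 2 (log2) in both treatments, 48 passed the interaction and 68 did not. For 6 of the 116 the 95% interval of the interaction reached less than 0.5 to either side of the estimate, so for most of them precision does not allow a response to be called equal. For 1 of the 116 the interval lay within 0.5, and of 7 genes that fell by as much none had such an interval. The 1 was Cdhr1, a cadherin-related protein known from photoreceptors, at 0.208, 0.23, 0.0668 and 0.0884 RPKM in unwounded vehicle, 2.39, 3.58, 2.5 and 3.22 in vehicle wounded, 0.0273, 0.0411 and 0.0431 in unwounded tamoxifen and 2.4, 2.32, 2.31 and 2.02 in tamoxifen wounded skin. It rose by 2.39 ± 0.12 in vehicle and 2.36 ± 0.13 in tamoxifen skin on the log2(RPKM + 0.5) scale, an interaction of -0.03 ± 0.17 (SE, adjusted p = 0.896). Its unwounded values lie far under the offset of 0.5 RPKM, which sets this equal rise: as RPKM means it went from 0.148 to 2.92 in vehicle and from 0.0372 to 2.26 in tamoxifen skin.

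With the wounded sets named as in the sample titles, the interaction called 9538 genes, 4722 higher and 4816 lower. Of the 5565 genes called under the gene-table names, 4701 (84.5%) were called in the same direction under the titles and 124 in the opposite one. Both namings share the unwounded treatment difference, and the titles only turn the sign of the wounded one. Where the wounded difference was the smaller, as in 5248 of the 5565 genes, the sign of the interaction is the same under both namings. A kept sign is therefore no test of the naming. The median interaction changed sign in 10 of the 44 lists, among them the wound-activated (0.47 against -0.45), basal (0.58 against -0.20) and differentiated (0.71 against -0.30) keratinocyte genes, and EGFR ligands and receptors (0.16 against -0.84). It kept its sign in the melanocyte (-3.10 against -3.53), cell cycle (-1.01 against -1.17), monocyte and macrophage (2.35 against 3.21) and resident macrophage (1.99 against 4.17) lists. The authors' deposited table gives group means under the gene-table names, which equalled means of log2(RPKM + 0.1) within 0.0001 in 24543 of 24543 genes. The difference of those means had the sign of the interaction in 5565 of 5565 called genes. Those means come from the same RPKM under the same names, so this match says nothing on which naming is right.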

How the data were processed

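Skin libraries were sequenced on a HiSeq3000 from cDNA made with NEBnext and NuGen kits, per the labels' protocols, which do not say which library had which kit, so a batch by kit was not tested. bcl2fastq, TopHat2 2.1.0, Partek and the build mm10 are named in the submitters' processing notes, with no role or order. The authors deposited an RPKM per gene and library, whose names of treatment for the wounded libraries are exchanged against the sample titles, group means as log2 values, and a table of whole-number read counts that holds the alignments per library and the gfp reads. Gene counts per library were not used here, so no count test was run.

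RPKM were taken as log2(RPKM + 0.5) for the 13922 genes with at least 1 RPKM in at least 3 libraries. One model with the 4 groups was fitted with limma 3.58.1 in R 4.3.3 with a variance trend (11 residual and 2.57 prior degrees of freedom), and p-values were adjusted by Benjamini and Hochberg over all 13922 genes at 0.05. Folds of low genes are understated by the offset. Errors after ± are standard errors of the fit. Arithmetic contrasts under both namings use the same fit.

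The members, the 44 gene lists (616 symbols, 611 found in the table, 582 tested) and the tests were chosen with earlier results of these data known, and list counts are descriptions without a set test. Every list count is to be read beside the shares of all tested genes, 19.7% higher and 20.2% lower. Through the vehicle libraries alone 1 member each of the EGFR, neutrophil, Sox, red blood cell and clock lists passed the filter on low values. Another 1 clock gene passed it through the tamoxifen libraries alone. Named genes are the 8 highest and 8 lowest interactions that kept their call without each library and reached a group mean of 5 RPKM (at most 2 per name stem), the 2 smallest p-values per list, the 4 smallest p-values per direction among genes called in opposite directions, the parallel genes and Sox2. Genes with a small unwounded difference and list members outside this rule were added after the values were seen. Between wounded sets A and B every correlation of deviations of libraries with the same replicate number was over 0.1 (0.123 to 0.43). No other pair of groups met this. Libraries of unlike replicate number were not compared, so these values do not show that the sets were paired. Gene coordinates and promoters are RefSeq's (GRCm38.p6, the first start listed per gene). A few genes that the rule names are not reported here.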

Additional observations from a re-analysis of the deposited data

Results flagged for a closer look

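Genes called in opposite directions by the wound responses of the 2 treatments and also called in the interaction numbered 678. The interaction is the difference of these responses, so its call adds nothing to the opposite directions. Single libraries apart from the 3 others of their group were looked for with Dixon's test in 348 group values of 116 genes, of which 39 were picked out. Some of these differ little in level from close others, such as Rgs5 at 18.7 RPKM beside 17.7 to 17.8. Chance alone picks out about 1 in 20 of independent values. These genes are not independent, and Sprr2a1 and Sprr2a2 hold the same values, so 39 is a description. In replicate 2 of vehicle wounded skin (set A) Mlana was at 9.95 RPKM (others 1.46 to 2.75), Tyrp1 was at 14.4 RPKM (others 4.62 to 4.83), Trpm1 was at 2.19 RPKM (others 0.295 to 0.386), Vsig8 was at 11.7 RPKM (others 0.287 to 0.454) and Pmel at 17.5 RPKM (others 5.56 to 6.4). In the same library Krtap19-4 was at 11.3 RPKM (others 0.209 to 0.312), Krt36 was at 2.43 RPKM (others 0.0874 to 0.228), Krt82 was at 4.11 RPKM (others 0.0152 to 0.0792), Krtap16-1 was at 4.95 RPKM (others 0.0481 to 0.163) and Krtap19-1 at 12.2 RPKM (others 2.87e-21 to 0.721). In the same library Gpr143 was at 0.273 RPKM (others 0.0882 to 0.115), Slc4a1 was at 0.198 RPKM (others 0.014 to 0.028) and Gprc5a at 3.22 RPKM (others 2.22 to 2.33). In replicate 3 of tamoxifen wounded skin (set B) Mir130c was at 0.000724 RPKM (others 3.45 to 3.98), Mlana was at 16.3 RPKM (others 1.88 to 4.13), Tyrp1 was at 21.2 RPKM (others 3.86 to 6.14), Tgm3 was at 16.8 RPKM (others 10.8 to 11.7) and Trpm1 at 3.88 RPKM (others 0.646 to 0.88). In the same library Pmel was at 27.1 RPKM (others 5.2 to 6.99), Krtap19-1 was at 75.5 RPKM (others 20.2 to 25), Gpr143 was at 0.758 RPKM (others 0.11 to 0.148), Gjb2 was at 471 RPKM (others 549.7 to 557) and Csf3r at 45.2 RPKM (others 22.1 to 26). In replicate 2 of unwounded vehicle skin Itga6 was at 21 RPKM (others 18.6 to 18.9), Dhcr7 was at 54 RPKM (others 47.8 to 48.6), Hba-a1 was at 208 RPKM (others 158 to 164) and Zdhhc24 at 3.88 RPKM (others 4.16 to 4.18). In replicate 4 of vehicle wounded skin (set A) Sprr2a1 was at 124 RPKM (others 76.7 to 77.3), Sprr2a2 was at 124 RPKM (others 76.7 to 77.3) and Sox2 at 3.82 RPKM (others 1.87 to 2.18). In replicate 4 of unwounded vehicle skin Krt36 was at 0.159 RPKM (others 0.257 to 0.268), Dlx3 was at 4.66 RPKM (others 5.56 to 5.69) and Slc4a1 at 0.0528 RPKM (others 0.0134 to 0.0201). In replicate 1 of tamoxifen wounded skin (set B) BC100530 was at 1799 RPKM (others 1160.0 to 1235) and Oas1a at 12.4 RPKM (others 8.75 to 9.36). In replicate 3 of unwounded vehicle skin Rgs5 was at 18.7 RPKM (others 17.7 to 17.8) and Zcchc17 at 15.4 RPKM (others 16.2 to 16.4). In replicate 1 of vehicle wounded skin (set A) Mir130c was at 1.55 RPKM (others 5.13e-26 to 1.7e-05). In replicate 3 of vehicle wounded skin (set A) Ncmap was at 1.84 RPKM (others 1.27 to 1.31). Replicate 2 of vehicle wounded skin was the high library for pigment and hair genes, and replicate 3 of tamoxifen wounded skin for pigment genes. The cause was not tested.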

How the results depend on the processing

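Under the treatment names of the sample titles the interaction called 9538 genes (4722 higher, 4816 lower) in place of 5565 (2749 and 2816), the alternative that moved these counts by over 1.5 times. When one library at a time was left out, 4658 to 5901 genes were called, 2258 to 3149 higher and 2400 to 3041 lower, and no gene called in both fits changed direction. With a block by replicate number over the wounded sets 5919 genes were called and 5403 of the 5565 kept their call. With a replicate block over all groups 5519 were called. Offsets of 0.1 and 1, no filter, a filter at 5 RPKM, median-of-ratios scaling, no variance trend and library weights gave 5514, 5596, 5775, 4409, 5637, 5547 and 6985 calls. The fit of the library weights stopped before its tolerance. Under the titles' names the sign was reversed for Lamb3 (-0.41), Itga6 (-0.041), Col17a1 (-0.25), Cox5a (0.17), Lama3 (-0.84), B3gnt3 (-0.75), Clec2e (-1.93) and Wbscr27 (0.24). Sox2, not called, reversed with library weights (0.14), without replicate 2 of unwounded tamoxifen skin (0.04) and without replicate 4 of set A (0.12), over a range of -0.19 to 0.12 with libraries left out. The causes were not tested. Mylpf, Cox5a and Cd79b lost their calls in several of these fits. Without replicate 2 of unwounded tamoxifen skin the single higher dermal papilla gene and the single lower hypoxia gene became 2, 3 smooth muscle markers were higher in place of 0 and 2 respiratory genes in place of 0. Without replicate 4 of vehicle wounded skin the single higher mast cell and lower macrophage markers became 2. In the shallowest library a level under 0.0764 RPKM rests on fewer than 3 reads on a transcript of 1 kb.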

Other observations

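In the skeletal muscle, sebaceous gland and sterol synthesis lists the share of called members was under that of all tested genes, of which 19.7% were higher and 20.2% lower. Skeletal muscle genes, from the panniculus muscle under the skin, fell in vehicle skin for 15 of 17 tested members (median -1.78) and in tamoxifen skin for 4 (median -0.73). The interaction was higher for 1 and lower for 0 (median 1.14). It was higher for 8 without replicate 2 of vehicle wounded skin or replicate 2 of unwounded tamoxifen skin, for 2 without replicate 4 of tamoxifen wounded skin, and for 0 without each of 7 other libraries. The 1 was Mylpf, a fast myosin light chain (1.66 ± 0.58 (SE, adjusted p = 0.0348)), and the troponin Tnni2 had 1.33 ± 0.53 (SE, adjusted p = 0.0622). Adipocyte genes fell in vehicle skin for 12 of 14 and in tamoxifen skin for 8, with 4 higher and 1 lower in the interaction (median 0.53). Cidea, a lipid droplet protein, had 1.06 ± 0.32 (SE, adjusted p = 0.0192), and the fatty acid carrier Fabp4, the lower one, -0.58 ± 0.18 (SE, adjusted p = 0.0225). The adipocyte count was 1 without replicate 3 or 4 of unwounded tamoxifen skin or replicate 1 or 2 of unwounded vehicle skin, and 2 without replicate 1 of vehicle wounded skin or replicate 1 or 2 of tamoxifen wounded skin.

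Sebaceous gland genes had 1 higher and 1 lower of 12 (median 0.47), the wax synthase Awat2 (1.52 ± 0.33 (SE, adjusted p = 0.00308)) and the desaturase Fads2 (-1.50 ± 0.23 (SE, adjusted p = 0.000303)). Without replicate 4 of vehicle wounded skin 7 sebaceous genes were higher, and 2 without replicate 2 of unwounded tamoxifen or replicate 3 of tamoxifen wounded skin. Sterol synthesis genes had 2 higher of 12 (median 0.12), among them Dhcr7 (0.79 ± 0.25 (SE, adjusted p = 0.0245)), and 0 without replicate 4 of unwounded tamoxifen skin and 1 without each of 5 other libraries. Schwann cell genes fell in vehicle skin for 9 of 9 and had 3 higher and 1 lower (median 0.19), with the myelin proteins Ncmap (1.23 ± 0.17 (SE, adjusted p = 0.000163)) and Pmp22 (0.83 ± 0.17 (SE, adjusted p = 0.00173)). The lower one was Sox10, and no Schwann cell member was lower without each of 9 of the 15 libraries. Of 5 tested oestrogen receptor targets 2 were higher (median 0.04), the receptor gene Esr1 (1.18 ± 0.18 (SE, adjusted p = 0.000303)) and the progesterone receptor Pgr. Pgr was at 2.17, 1.4, 4.13 and 3.73 RPKM in unwounded vehicle skin, 1.13, 0.415, 1.04 and 0.41 in vehicle wounded, 0.0307, 0.0321 and 0.0674 in unwounded tamoxifen and 0.0165, 0.0132, 0.00288 and 0.00859 in tamoxifen wounded skin. Every tamoxifen library was under every vehicle library. Pgr passed the filter on low values through vehicle libraries alone, and its tamoxifen values lie far under the offset of 0.5 RPKM, so that its interaction of 1.30 ± 0.38 (SE, adjusted p = 0.0157) restates the fall in vehicle skin. As RPKM means it went from 2.86 to 0.749 in vehicle and from 0.0434 to 0.0103 in tamoxifen skin.

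Red blood cell genes fell in both treatments, 7 of 7 in tamoxifen skin and 6 of 7 in vehicle skin, with 1 lower in the interaction (median -0.12), the anion exchanger Slc4a1 (-1.34 ± 0.35 (SE, adjusted p = 0.00851)). Slc4a1 was at 2.22, 5.06 and 5.32 RPKM in unwounded tamoxifen skin. It was at 0.0134 to 0.0528 RPKM in unwounded vehicle and 0.014 to 0.198 in vehicle wounded skin, far under the offset of 0.5 RPKM. Slc4a1 passed the filter on low values through tamoxifen libraries alone, so its interaction restates the fall in tamoxifen skin. The alpha globin Hba-a1 had 0.55 ± 0.41 (SE, adjusted p = 0.297). Of 12 tested Sox genes 1 was higher and 4 lower (median -0.11), beside 19.7% higher and 20.2% lower of all tested genes. Sox4, a factor of growing epithelium, had -1.21 ± 0.23 (SE, adjusted p = 0.00115) and Sox12 -0.68 ± 0.14 (SE, adjusted p = 0.00188). The others, named after their values were seen, were Sox21 (-1.08 ± 0.29 (SE, adjusted p = 0.0102)), Sox10 (-0.52 ± 0.18 (SE, adjusted p = 0.035)) and, higher, Sox15 (1.03 ± 0.28 (SE, adjusted p = 0.0103)). Mir130c passed the naming rule with 4.28 ± 1.09 (SE, adjusted p = 0.00755), but its levels came near 0 in libraries of 3 groups, at 2.16, 0.206 and 0.000202 RPKM in unwounded tamoxifen skin.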
